A study of Mus musculus with 2 samples.

Results

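The set described here holds 10 genes listed as genes of choroid plexus and meninges, several of which other brain cells also express. The choroid plexus is the epithelium that secretes cerebrospinal fluid, and the meninges are the membranes around the brain. The 10 genes are Ttr, Ptgds, Enpp2, Cst3, Kl, Igf2, Igfbp2, Dcn, Mgp and Aldh1a2, picked by name out of 45578 genes in the table. Of these, 9 encode secreted or shed proteins, and Aldh1a2 encodes a cytosolic enzyme of meningeal cells. Each gene was represented by the transcript with the highest count summed over both libraries. The material was brain of control mice at postnatal day 5, with the genotype Smn+/-; SMN2tg/0 on a congenic FVB background: heterozygous for mouse Smn and carrying the human SMN2 transgene of the Taiwanese model of spinal muscular atrophy. Both libraries come from this 1 group, which has 2 biological replicates and no second condition. The labels do not say whether meninges and choroid plexus were kept with the brain, and the sources used here do not say further whether the replicates were separate animals. P-values therefore compare only these libraries, whose difference may be technical, and they do not estimate the spread between replicates.

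The measurement was RiboLace, a pull-down of translating ribosomes with a puromycin analogue after nuclease digestion, followed by sequencing of the protected fragments, or footprints. A count thus reflects translating ribosomes on a messenger RNA. It also depends on the amount of that RNA, and the levels given here do not separate translation from RNA amount. The libraries held 343552 and 120282 counts at the gene level. Levels are given in CPM, the count scaled to a common library size, so that a single count stands for 2.71 CPM in the deeper replicate 1 and for 8.93 CPM in replicate 2. Because genes differ in length, levels of different genes are compared only as CPM per kilobase of coding sequence, called coding density here. Intervals are exact 95% Poisson intervals for levels and 95% Wilson intervals for shares, and they cover counting error only.

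Choroid plexus epithelium secretes proteins into the cerebrospinal fluid, among them carriers of hormones and vitamins, protease inhibitors and growth factors that reach the whole developing brain. Fibroblasts of the meninges make matrix proteins, growth factors and retinoic acid, which acts on the cortex beneath them. Several of these proteins also have other sources in brain: Cst3 is made by astrocytes and microglia, Ptgds and Enpp2 by oligodendrocytes, and Igfbp2 by astrocytes. In bulk brain, fewer cells of a type and less RNA per cell cannot be told apart.

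The 10 genes held 1097 counts in replicate 1 and 348 in replicate 2. As a share of each library this was 0.319% (95% Wilson interval 0.301 to 0.339) and then 0.289% (interval 0.260 to 0.321), so the intervals overlapped. On the scaled measure the set stood at 3040 CPM ± 95.2 (SD, n = 2). The sum rested on a few genes. Ttr, Cst3 and Ptgds held 82.8% of the set's counts in replicate 1 and 80.2% in replicate 2. The levels of the members spanned from over 1000 CPM for Ttr to a handful of fragments for Mgp and Kl.

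**Figure D1:**
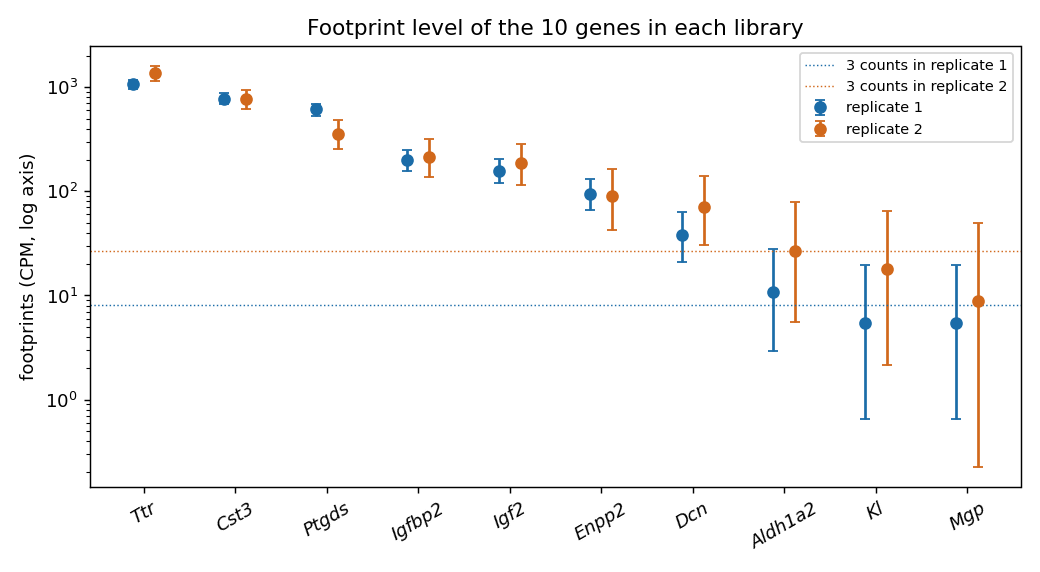
Footprint level (CPM, log axis) of each of the 10 genes in replicate 1 and replicate 2, ordered by mean level, with exact 95% Poisson intervals; dotted lines mark the level of 3 counts in each library, 8.13 CPM in replicate 1 and 26.8 CPM in replicate 2. Ptgds is the gene whose 2 intervals lie apart, at 612 and 357 CPM, and Aldh1a2, Kl and Mgp lie near or under the dotted lines.

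Ttr encodes transthyretin, the carrier of thyroid hormone and of retinol-binding protein in cerebrospinal fluid and a hallmark product of choroid plexus epithelium. Its footprints numbered 395 in replicate 1 and 153 in replicate 2, which is 1070 CPM (967 to 1181) and 1366 CPM (1158 to 1601). Replicate 2 was higher, and the intervals overlapped. Over its coding sequence of 444 nucleotides its density was 2744 CPM per kilobase ± 471 (SD, n = 2), or 44.1 times the median of 62.3 over 4294 tested coding genes. That placed Ttr 10th in density among those genes. Its nearest neighbours in density were Actb, cytoplasmic beta-actin, at 2772 CPM per kilobase, and the predicted gene Gm8797 at 2652.

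Cst3 encodes cystatin C, a secreted inhibitor of cysteine cathepsins. It had 287 and 86 counts, or 778 CPM (690 to 873) and 768 CPM (614 to 948), nearly the same level in both libraries. Its coding density of 1827 CPM per kilobase ± 16.4 (SD, n = 2) was the 33rd highest. The neighbours in that order were the predicted gene Gm9844 at 1844 CPM per kilobase and Nnat, an imprinted gene for a small membrane protein, at 1802.

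Ptgds encodes lipocalin-type prostaglandin D synthase, an enzyme and lipid carrier of cerebrospinal fluid made by leptomeninges and choroid plexus. Footprints of Ptgds numbered 226 in replicate 1 and 40 in replicate 2, which is 612 CPM (535 to 698) and 357 CPM (255 to 486). These intervals did not overlap, and replicate 2 was the lower one. The mean coding density was 851 CPM per kilobase ± 317 (SD, n = 2), the 97th highest.

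Enpp2 encodes autotaxin, the secreted enzyme that makes lysophosphatidic acid. It had 35 and 10 counts, or 94.8 CPM (66.1 to 132) and 89.3 CPM (42.8 to 164), at the same level within counting error. Its coding sequence of 2745 nucleotides is the longest among the 7 tested members, and its density of 33.5 CPM per kilobase ± 1.43 (SD, n = 2) was 0.539 times the median of tested coding genes. Kl, which encodes klotho, a choroid plexus membrane protein shed into the fluid and a coreceptor for FGF23, had 2 counts in each library. The transcript that stands for Kl is a retained-intron form without coding sequence, so it has no coding density. The coding isoform of Kl had 2 counts in replicate 1 and 0 in replicate 2, where the limit used for a count of 0 is 3 counts, or 26.8 CPM.

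The growth factor members were intermediate. Igf2, an imprinted fetal growth factor expressed from both parental copies in choroid plexus and leptomeninges, had 58 and 21 counts, or 157 CPM (119 to 203) and 188 CPM (116 to 287). Its coding density was 299 CPM per kilobase ± 37.3 (SD, n = 2). Igfbp2, a binding protein that carries insulin-like growth factors in cerebrospinal fluid, had 74 and 24 counts, or 201 CPM (157 to 252) and 214 CPM (137 to 319). Its density was 226 CPM per kilobase ± 10.6 (SD, n = 2). For both genes the libraries overlapped within counting error. They lay 4.81 and 3.63 times above the median coding density.

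Dcn, Mgp and Aldh1a2, the meningeal matrix and retinoic acid genes, had few counts. Dcn encodes decorin, a small leucine-rich proteoglycan of meningeal fibroblasts that binds collagen. It had 14 and 8 counts, or 37.9 CPM (20.7 to 63.7) and 71.4 CPM (30.8 to 141), and a coding density of 51.4 CPM per kilobase ± 22.2 (SD, n = 2), just under the median. Mgp, the matrix Gla protein that inhibits calcification, had 2 and 1 counts. Aldh1a2, the retinaldehyde dehydrogenase that makes retinoic acid in the meninges, had 4 and 3 counts. The last 2 genes and Kl were under the mean of 10 counts required for a test. Their levels cannot be told apart from each other at this depth.

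**Figure D2:**
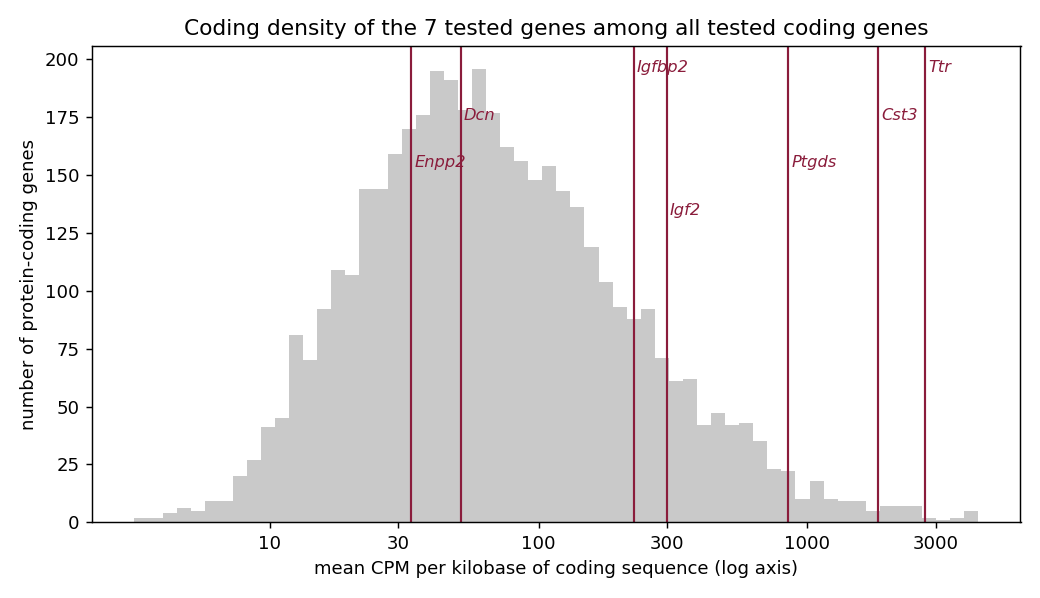
Histogram of mean coding density (CPM per kilobase of coding sequence, log axis) over the 4294 tested coding genes, with vertical lines at the 7 tested genes of the set. Ttr, Cst3 and Ptgds lie in the right tail at 2744, 1827 and 851 CPM per kilobase, whereas Dcn and Enpp2 lie left of the median of 62.3.

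In order of coding density the members ran Ttr, Cst3, Ptgds, Igf2, Igfbp2, Dcn, Enpp2, Mgp and Aldh1a2. Ttr lay above Cst3 by 1.31 times in replicate 1 and 1.69 times in replicate 2, and Cst3 above Ptgds by 1.71 and 2.90 times, with intervals apart in both libraries. Ptgds exceeded Igf2 by 3.94 times in replicate 1, where the intervals were apart, and by 1.92 times in replicate 2, where they overlapped. Igf2 and Igfbp2 did not differ beyond counting error in either library. Igfbp2 exceeded Dcn by 6.13 and 3.48 times, with intervals apart in both. From Dcn downward no neighbours were apart. Ttr exceeded Dcn 67.7-fold in replicate 1 and 45.9-fold in replicate 2 per coding length.

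The design allows 1 comparison, between the libraries, and a test on the reads of 2 libraries compares those libraries, not conditions. Of the 10 members, 7 passed the filter, a mean of at least 10 counts. Each gene was tested by a 2-sided exact binomial test, adjusted by Benjamini-Hochberg over all 5436 genes tested, and 1 of these 7 was called, Ptgds. Over all genes tested the same rule called 4.14% in either direction and 0.147%, or 8 genes, as lower in replicate 2. The number of lower genes was 23 with library totals, 222 with isoforms summed and 1 with a preset biological coefficient of variation of 0.2. The 7 tested members are protein-coding, and with protein-coding genes alone 22 of 4392 were called, 0 of them as lower. Ptgds was 1.71-fold lower in replicate 2, where the log2 ratio came to -0.78, its counting SE to 0.25 and its adjusted exact binomial p to 0.0285. The other 6 tested members did not pass. Ttr, at a log2 ratio of 0.35 (SE 0.14), had an unadjusted exact binomial p of 0.0115 and an adjusted one of 0.204. For Dcn the log2 ratio was 0.90, with an SE of 0.64 (adjusted exact binomial p = 0.856). Cst3, Igf2, Igfbp2 and Enpp2 lay between -0.09 and 0.25, each with an adjusted exact binomial p of 1. The median log2 ratio of the 7 was 0.095, beside 0.0041 over all genes tested. A miss of the threshold does not show that the levels are equal, since the counting SE of Enpp2 alone was 0.52.

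The Ptgds call depended on the settings. It was lost when protein-coding genes alone were scaled and tested (log2 ratio -0.76, adjusted exact binomial p = 0.175). It was also lost with the preset coefficient of variation (adjusted p = 1 in edgeR's exact test), and with another isoform of equal coding length. Ptgds has 3 isoforms with a coding sequence of 570 nucleotides. The one used, Ptgds-005, had 226 and 40 counts, while Ptgds-004, with a longer 5' untranslated region, had 210 and 49, a log2 ratio of -0.37 (adjusted exact binomial p = 0.706). The summed level of 26 choroid plexus epithelium markers was 390 CPM in replicate 1 and 393 CPM in replicate 2, that of 26 meningeal fibroblast markers 1290 and 1607 CPM, and that of 9 oligodendrocyte lineage markers 688 and 866 CPM. The summed markers of mural cells stood at 285 and 277 CPM, and those of ependymal cells at 62.3 and 35.7 CPM, from 23 and 4 counts. The part of these cell types in the Ptgds difference was not tested. Each of the 9 oligodendrocyte markers had a count in at least 1 library. Of the choroid plexus list Calml4 and F5 had 0 counts in both libraries, and of the meningeal list Slc47a1.

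**Figure D3:**
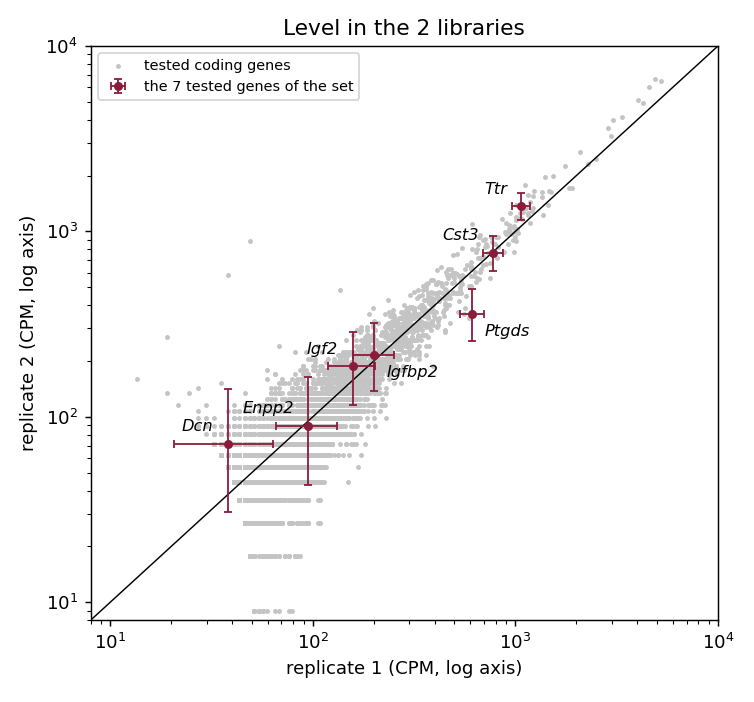
Level in replicate 2 against replicate 1 (CPM, log axes) for tested coding genes with a count in each library (grey) and for the 7 tested genes of the set, with exact 95% Poisson intervals and the line of equal level. Ptgds lies under the line at 612 and 357 CPM, Ttr slightly over it, and Cst3 on it at 778 and 768 CPM.

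Isoforms with the full coding sequence of a member had mostly similar counts, and shorter or non-coding ones mostly had fewer. A fragment appears to have been counted for every transcript it matched, so isoform counts are not separate measurements. Ttr, Mgp and Aldh1a2 have 1 transcript each in the table, whereas Igf2 has 9, of which 2 lack a coding sequence. Ptgds-002, a retained-intron form, had 130 and 23 counts, 57.5% of those of the isoform used. Igfbp2-002, with a coding sequence of 477 nucleotides instead of 918, had 30 and 17 counts, 48.0% of those of the full-length isoform. Cst3-002, which has a coding sequence of 308 nucleotides and no 3' untranslated region, had 210 and 56 counts against 287 and 86 for the full-length isoform Cst3-001.

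The isoforms of Igf2 differ mainly in their untranslated regions. Igf2-004 and Igf2-001 share a coding length of 543 nucleotides. Igf2-001 is longer by 3058 nucleotides, of which 2990 lie in the 3' untranslated region. The short isoform had 49 and 8 counts and the long one 60 and 17, so the added sequence brought 11 counts in replicate 1 and 9 in replicate 2. Over both libraries this was 6.54 counts per kilobase of added sequence against 87.7 per kilobase of the short transcript, or 7.46%. The libraries differed in this value, at 4.77% in replicate 1 and 23.9% in replicate 2, where the short isoform had 8 counts. Igf2-003, longer by 3320 nucleotides, gave 6.87%, and Igf2-201, longer by 1853, gave 7.38%. These 3 values share the same short isoform and are not independent. With Igf2-201 as the shorter form, the sequence added in Igf2-001 gave 24.1% and that in Igf2-003 gave 19.8%, while Igf2-001 and Igf2-003 had the same summed count. For Ptgds the same subtraction gave 66.8% between Ptgds-001 and Ptgds-004, and negative values, -111% and -16.2%, for the longer forms Ptgds-001 and Ptgds-004 against Ptgds-005. A longer form thus did not always hold the counts of a shorter one, and the subtraction does not place footprints within these transcripts. The corresponding pair of Dcn, which differs by 92 nucleotides of 5' untranslated region, differed by 1 and 2 counts, too few to compare.

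**Figure D4:**
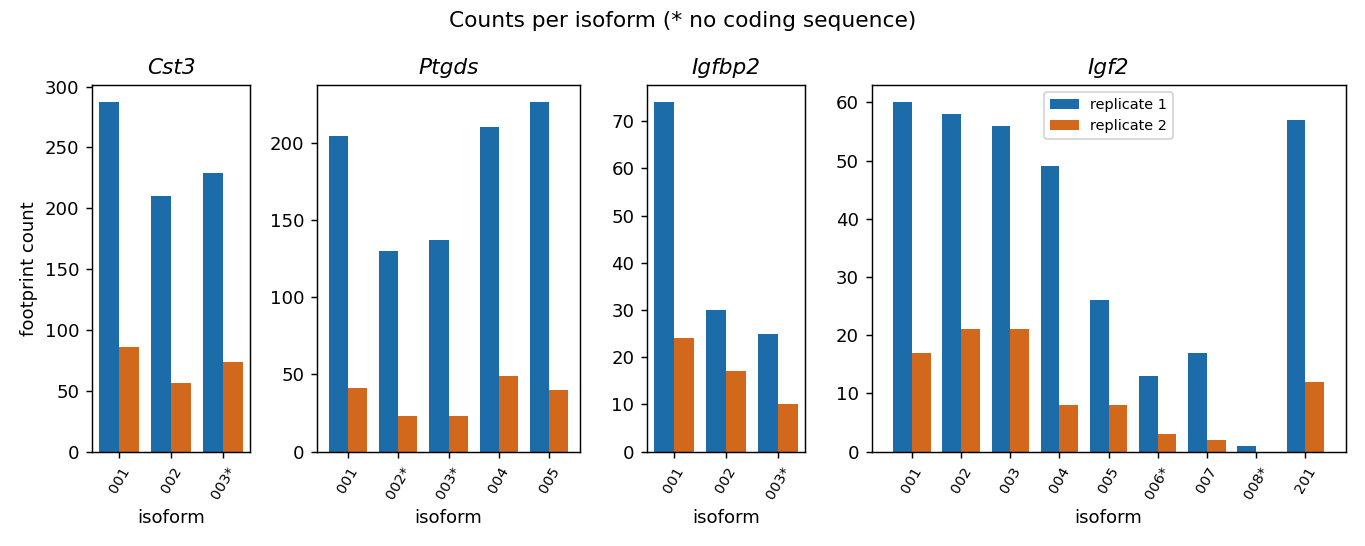
Footprint counts per isoform of Cst3, Ptgds, Igfbp2 and Igf2 in replicate 1 and replicate 2; isoforms are named by their number in the table, an asterisk marks one without coding sequence, and each panel has its own axis from 0. The full-length forms of Igf2 (001, 002, 003 and 201) have 56 to 60 counts in replicate 1, and Igf2-008 has 1.

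The long Igf2 isoforms differ in the length of their 5' untranslated region, from 85 to 1099 nucleotides. The sequences before the starts of Igf2 are therefore shown here, together with those of Cst3, Ptgds and Igfbp2. After Ttr, which is not shown, these are the members of highest coding density. RefSeq windows on build GRCm38.p6 were matched for 6 members with 10 starts; Enpp2, Dcn, Mgp and Ttr are not shown. The 60 bases before the start are printed 5' to 3' on the strand of the gene, and starts of Igf2 are numbered in the direction of transcription. Capitals mark matches on either strand to ATAAA, a core of TATA-like elements, or to GGGCGG, the GC box.
Ptgds, chr2:25469750-25469809, minus strand: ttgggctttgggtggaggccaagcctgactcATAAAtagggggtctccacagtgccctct
Cst3, chr2:148875513-148875572, minus strand: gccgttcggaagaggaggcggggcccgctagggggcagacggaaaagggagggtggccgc
Igfbp2 first start, chr1:72824420-72824479, plus strand: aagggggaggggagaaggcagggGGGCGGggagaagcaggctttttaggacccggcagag
Igf2 start 1, chr7:142666817-142666876, minus strand: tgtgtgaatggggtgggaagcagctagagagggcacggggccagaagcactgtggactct
Igf2 start 2, chr7:142661272-142661331, minus strand: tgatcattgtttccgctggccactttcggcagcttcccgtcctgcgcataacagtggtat
Igf2 start 3, chr7:142658805-142658864, minus strand: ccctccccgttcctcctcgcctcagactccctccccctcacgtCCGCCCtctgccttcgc
Igf2 start 4, chr7:142657497-142657556, minus strand: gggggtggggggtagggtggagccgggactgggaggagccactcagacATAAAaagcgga

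ATAAA was found in 2 of the 10 windows, those of Ptgds and of Igf2 start 4, beside 11.8% of 32851 windows of the same length. GGGCGG was found in 3 of the 10, those of Igfbp2, Kl and Igf2 start 3, beside 18.6%. The motif GGATTA, bound by the choroid plexus factor Otx2, was found in 0 of the 10, beside 1.29% of those 32851 windows. The window of Ptgds held 0 CpG dinucleotides and those of Cst3 and Aldh1a2 held 6 each, against a median of 2. A match is a description of the letters, and the footprint table carries no measurement of these promoters.

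The choroid plexus epithelium itself was represented thinly outside the set. Of 26 markers of this epithelium, 20 had fewer than 10 counts over both libraries, and 9 had 0 counts in replicate 2. The whole list held 144 counts in replicate 1 and 44 in replicate 2, fewer than Ttr alone. Rdh5, a retinol dehydrogenase best known from retinal pigment epithelium, was the densest at 126 and 138 CPM per kilobase, and Ttr exceeded it 19.2-fold and 22.3-fold. The Rdh5 values rest on 15 and 5 counts and on a transcript with a coding sequence of 323 nucleotides and no 3' untranslated region. Slc31a1, a copper transporter, followed at 73.4 and 75.5 CPM per kilobase, and the claudin Cldn3 had 2 and 3 counts. Several defining genes, named after their values were seen, had few counts: the folate receptor Folr1 had 4 and 2, the transcription factor Otx2 5 and 1, and the potassium channel Kcnj13 3 and 0. Of the 3 markers tested, 0 were called by the exact binomial test, 0 had an unadjusted p under 0.05, and 0 were called with the preset coefficient of variation.

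The meningeal fibroblast list held more counts, 476 and 180 over 26 genes, but 13 of these genes had fewer than 10 counts over both libraries. Its genes are not all particular to these cells: Igfbp5 is also in the insulin-like growth factor list and Vtn in the mural list. Igfbp5, an insulin-like growth factor binding protein, was the densest at 252 and 263 CPM per kilobase. Dcn reached 0.141 and 0.255 times that density. Col1a1, a chain of type I collagen, followed at 54.1 and 98.3 CPM per kilobase, and Col1a2, the other chain, at 45.4 and 54.2. Of 8 tested genes in this list, 1 was called as higher in replicate 2, beside 217 of all 5436 genes tested. This was Col1a1, whose 87 and 48 counts gave a log2 ratio of 0.86 (adjusted exact binomial p = 0.0370, SE 0.26). It was not called with the preset coefficient of variation. Dcn, with 14 and 8 counts, had a ratio of 0.90 and was not called. Over the 8 tested genes of the list the ratios had both signs, from -0.24 to 1.12, with a median of 0.13. The part of the fibroblast content of each library in the level of Dcn was not tested.

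**Figure D5:**
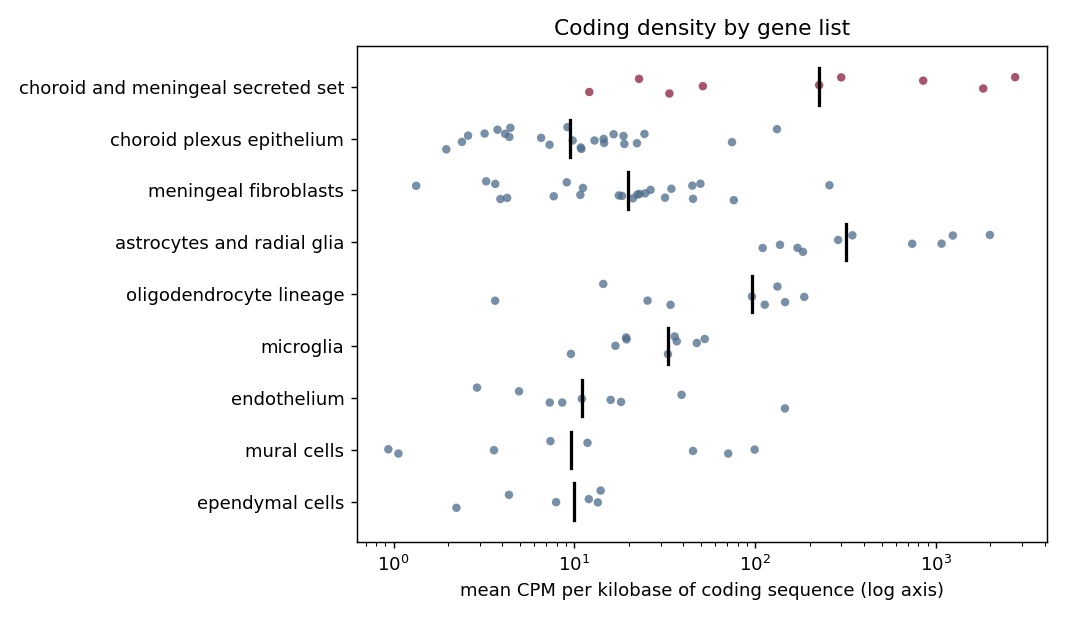
Mean coding density (CPM per kilobase, log axis) of each gene with a coding sequence and a count, for the choroid and meningeal secreted set and 8 cell type marker lists; black bars are medians, which include genes at 0. The set's median of 226 lies between those of astrocytes and radial glia, at 316, and the oligodendrocyte lineage, at 96.0, while the choroid plexus epithelium list has a median of 9.47.

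Partners of the members in their pathways were mostly low. Among 16 other genes of the insulin-like growth factor system, 8 were tested and 0 were called, also at an unadjusted p under 0.05 or with the preset coefficient of variation. After Igfbp5, the densest of these were Igfbp7, at 54.7 and 75.8 CPM per kilobase, and Igfbp4, at 60.2 and 58.4. Igf1, the other ligand, named after its values were seen, had 5 and 2 counts, and Igf2 exceeded it 9.30-fold and 8.42-fold per coding length. That ratio rests on the few counts of Igf1. Igfbp2 and Igfbp5 stood at nearly the same density, with ratios of 0.865 and 0.889.

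Of the 9 genes in the list of cystatins and their cathepsin targets, 3 were tested and 4 had fewer than 10 counts over both libraries. Ctsb, the lysosomal protease cathepsin B, had 141 and 53 counts and a density of 375 and 464 CPM per kilobase. Cst3 exceeded it 4.91-fold and 3.91-fold. Ctsl, cathepsin L, stood at 156 and 275 CPM per kilobase, and the intracellular inhibitor Cstb at 63.9 and 180, from 7 and 6 counts. Of the 3 tested, 0 were called by the exact binomial test. An unadjusted p under 0.05 was reached by 1 of them, Ctsl, and 0 were called with the preset coefficient of variation.

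Genes upstream and downstream of Ptgds, Enpp2 and Kl mostly had few footprints, with exceptions. Of 7 genes for prostaglandin synthesis and reception, 6 had fewer than 10 counts. The exception was Ptges3, a cochaperone also named for prostaglandin E synthase activity, with 68 and 15 counts, or 382 and 277 CPM per kilobase. Hpgds, the haematopoietic prostaglandin D synthase, had 2 and 2 counts, and Ptgs1, a cyclooxygenase, 2 and 1. The receptor Ptgdr2 had 0 counts in both libraries. For Enpp2, 7 of the 9 genes of lysophosphatidic acid signalling had fewer than 10 counts over both libraries. The lipid phosphatase Ppap2b led with 85 and 16 counts, or 245 and 152 CPM per kilobase, above Enpp2 at 34.6 and 32.5. Ppap2a, another lipid phosphatase, had 20 and 6 counts. The receptor Lpar1 followed with 7 and 1. For Kl, Adam10, a protease that can shed klotho, had 38 and 8 counts, Fgfr3 11 and 7 and Fgfr1 14 and 6. Fgf23 and Klb, a klotho paralog, had 0 in both libraries.

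The retinoid genes beside Aldh1a2 summed to 106 and 24 counts over 17 genes, of which 0 reached the filter. The binding protein Crabp1 stood at 104.7 and 64.7 CPM per kilobase, and Cyp26b1, which degrades retinoic acid, at 24.7 and 17.4. Cyp26a1 had 0 counts in both libraries. Among the other small leucine-rich proteoglycans, 0 of 10 reached the filter, and the densest were Bgn, or biglycan, with 15 and 4 counts, and Fmod, or fibromodulin, with 10 and 5. The density of Dcn was 0.973 and 2.08 times that of Bgn and 1.49 and 1.70 times that of Fmod. Ogn, or osteoglycin, had 2 and 4 counts, and Omd and Kera had 0. Around Mgp, the vitamin K cycle and BMP list of 6 genes held 39 and 6 counts, led by Vkorc1l1, with 11 and 4, Vkorc1, with 9 and 1, and Bmp7, with 7 and 1. In the thyroid hormone list beside Ttr, the receptor Thra had 138 and 34 counts and the cytosolic binding protein Crym 57 and 18. The endocytic receptor Lrp2 had 0. Of 3 tested genes in that list 0 were called, at an unadjusted p under 0.05 or with the preset coefficient of variation either.

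Set beside other cell types of the brain, the secreted set held a smaller share of counts than 10 astrocyte and radial glia genes, at 0.527% and 0.500%, or 10 neuronal genes, at 0.719% and 0.723%. Ttr exceeded Apoe, an astrocyte apolipoprotein, 2.19-fold and 2.93-fold per coding length, and Cst3 exceeded it 1.67-fold and 1.73-fold. The denser astrocyte genes were Fabp7, a fatty acid binding protein of radial glia, at 1650 and 2328 CPM per kilobase, and Mt3, a metallothionein, at 1100 and 1380. The neuronal list was led by Stmn2, at 2198 and 2679, Tubb3, at 2125 and 2673, and Snap25, at 572 and 590. Of 10 tested genes in the neuronal list, 1 was called as higher in replicate 2, beside 217 of all 5436 genes tested. This was Tubb3 (log2 ratio 0.33, adjusted exact binomial p = 0.00365). With the preset coefficient of variation 0 genes of the list were called. The count of Tubb3 is uncertain because tubulin paralogs may share fragments, which was not tested. Cell types near the ventricles and vessels were low. The 7 ependymal markers held 23 and 4 counts, led by Dynlrb2, Foxj1 and Tmem212. The 9 endothelial markers held 89 and 37, led by Cldn5, the 8 mural markers 105 and 31, led by Acta2, and the 9 microglial markers 99 and 34, led by C1qc. The 7 erythroid genes, with haemoglobin chains in the lead, held 1408 and 463 counts. Fragments shared between similar haemoglobin chains may be counted repeatedly in this sum, which was not tested.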

How the data were processed

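Footprints of translating ribosomes, captured with RiboLace, were analysed in brain of 1 group of control mice, in 2 replicates. The authors deposited raw counts per transcript and replicate with the lengths of each transcript and its regions. Per the submitters' processing notes, Trimmomatic 0.36, Bowtie2 2.2.6 and SAMtools were used on GRCm38.p4; the counting tool and annotation release are not given in the sources used here. Columns were matched to replicates by the number in their names. The table totals were 729027 and 225075 counts for 109463 transcripts. Many isoforms with the full coding sequence carry similar counts and shorter or non-coding ones mostly fewer, so a fragment appears to be counted for each transcript it matches. Each of 45578 genes was represented by the transcript with the highest summed count, the longer in a tie.

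CPM used effective library sizes from edgeR 4.0.16 (TMM factors 1.07 and 0.931) after genes averaging under 10 counts were left out. Log2 ratios are on log2(CPM + 1), replicate 2 over replicate 1, and understate changes of low genes. The exact binomial test with Benjamini-Hochberg adjustment at 0.05 ran over all 5436 genes tested with scipy 1.17.1. It was tested on simulated data with counting error alone, which cannot show how it behaves when replicates spread more. With 1 group there are no groups for a quasi-likelihood test to compare, and a term for each library leaves no residual. Coding density includes footprints in untranslated regions. The text names all members and, of each other list, at most the 3 densest genes, those called and those at 0 counts; for the 2 densest members it names the neighbours in density; Folr1, Otx2, Kcnj13 and Igf1 were named after their values were seen, and a few genes that fall under this rule are not reported here. Members and lists were chosen with earlier results of these data known. Symbols are those of the table; the lipid phosphatase genes were matched through current names of their identifiers. Alternatives were another scaling, isoform choice, filter, pseudocount, a preset coefficient of variation and omission of a replicate or member.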

Additional observations from a re-analysis of the deposited data

How the results depend on the processing

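No paired analysis was possible because both libraries belong to a single group. The number of genes that differed between the libraries, 225, became 605 with isoforms summed, which counts fragments repeatedly, 75 at a minimum mean of 50 counts, which tests 764 genes, 22 for protein-coding genes alone and 131 with the preset coefficient of variation. Genes lower in replicate 2 numbered 8, against 23 with library totals, 222 with isoforms summed and 1 with the preset coefficient of variation; the 22 for coding genes alone were higher. The share of higher calls was 96.4%, 88.4% with library totals and 63.3% with isoforms summed. The number of members called, 1, became 2 with isoforms summed (Ttr and Ptgds) and 0 for coding genes alone, with the preset coefficient of variation, and with the longer transcript in a tie of coding length; at an unadjusted p under 0.05 these last 3 settings gave 2, 0 and 1. Over 10 alternatives the log2 ratio of Ptgds ran from -0.98 to -0.37 and its adjusted p from 2.52e-05 to 1. The summed level of 3040 CPM became 3470 with isoforms summed, 3943 for coding genes alone, 3143 with the longer transcript in a tie and 1822 without Ttr. The log2 ratio of the sum, 0.064, became -0.14 with library totals, which lower the median of all genes from 0.0041 to -0.20, -0.058 with isoforms summed, -0.13 without Ttr and 0.22 without Ptgds. The order of the members by density changed at 2 neighbouring pairs with isoforms summed and at 0 in each library alone. The cause was not tested except where the setting shows it. The longer transcript in a tie, and omission of Ptgds, were chosen after seeing the data. Depth limits the comparison of Kl, Mgp and Aldh1a2, which had at most 4 counts in a library.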
